A study of Mus musculus with 6 samples.

Results

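The 10 genes described here encode the protein kinase mTOR (Mtor), the scaffolds of its complexes (Rptor, Rictor), its inhibitors (Deptor, Tsc1, Tsc2, Ddit4, Sesn1) and the substrates of mTOR complex 1 (Rps6kb1, Eif4ebp1). They were taken by gene name from a table of 20015 genes, in which all 10 were present, and all 10 were among the 16095 genes that passed the filter on low counts. RNA was sequenced from quadriceps muscle, the muscle group that straightens the knee, in 3 libraries labelled injured (anterior cruciate ligament, ACL, torn) and 3 labelled non-injured. Each group has a library A, B and C, with no word in the labels on the meaning of a letter, and totals ran from 6452790 to 8752500 estimated counts. Per the series text, injured limbs were sampled ahead of reconstruction. Not given in the sources used here are strain, age, sex, drug treatment, the time since the tear, and whether the non-injured limbs belong to the same individuals. The organism label is mouse while the series text speaks of human tissue; all 10 rows have the mouse gene's position in GENCODE M21 on mm10, and the values are read as mouse here.

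mTOR complex 1 joins amino acids, growth factors and energy supply to protein synthesis, and in skeletal muscle it is required for much of the growth response to load. When active it phosphorylates S6 kinase 1 (Rps6kb1) and the translation repressor 4E-BP1 (Eif4ebp1), which then lets go of the cap-binding protein eIF4E. The TSC complex shuts the pathway off by keeping the GTPase Rheb inactive, and Ddit4 (REDD1) and the sestrins are induced by stress and act upstream to the same end. These are controls on protein activity, and the values below are RNA levels only. The series title speaks of reduced protein synthesis and anabolic signalling after the tear, and the comparison asks whether RNA of the pathway differs between injured and non-injured quadriceps.

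None of the 10 genes differed between injured and non-injured quadriceps at an adjusted p under 0.05 (edgeR quasi-likelihood test): 0 were called higher and 0 lower, and 2, Rictor and Rps6kb1, had an unadjusted p under 0.05, as 15.4% of all genes did. DESeq2 and limma-voom also called 0. Over all genes tested, 0.715% were called higher and 0.0311% lower. The median log2 fold change of the 10 genes was -0.05, beside 0.00 over all genes tested, with 3 positive and 7 negative values. When the letter was entered as a block, Rictor and Ddit4 fell, 2 of 10 genes, beside 2.65% of all genes called lower and 3.21% called higher; none of the 10 rose. The largest difference in any of the 10 lay not between the groups but between letters: Ddit4 was at 2.04 and 3.22 CPM in the A libraries and between 15.7 and 44.8 CPM in the other 4.

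**Figure D1:**
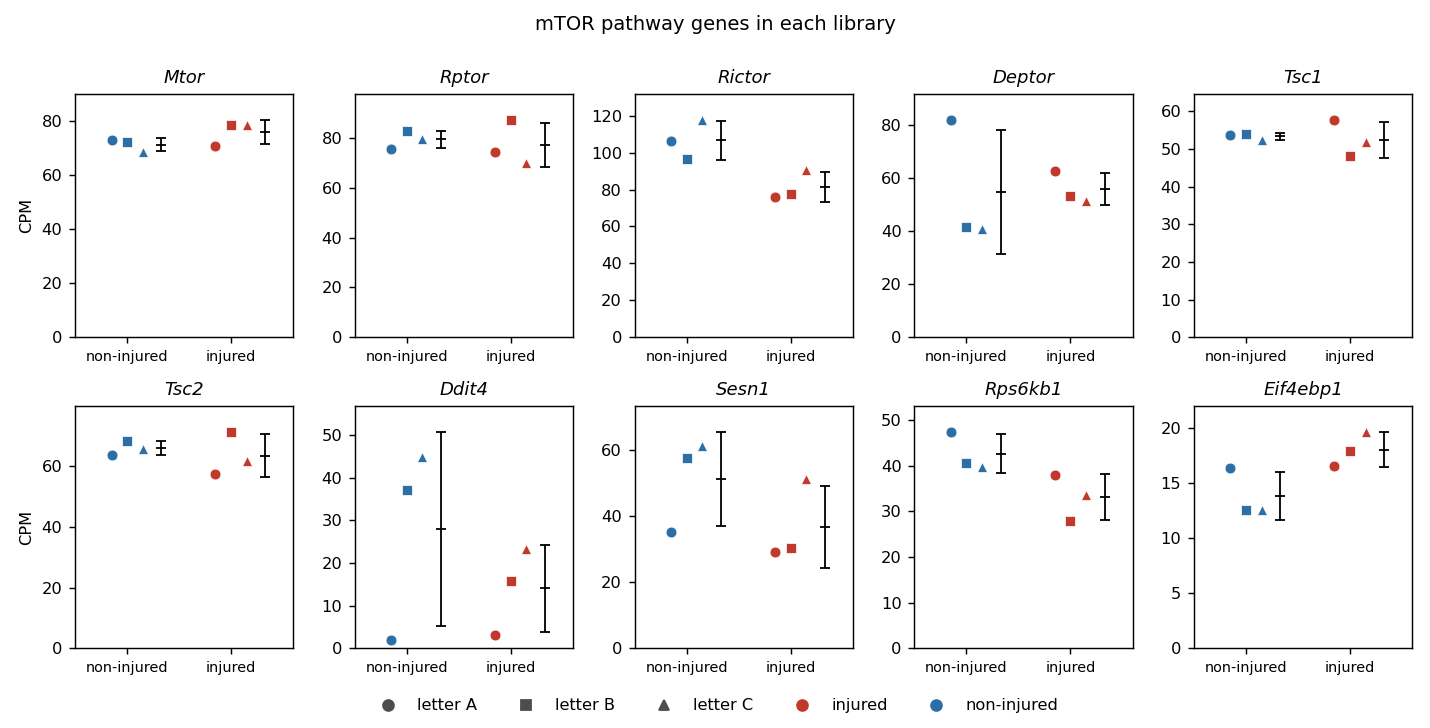
CPM (counts scaled to a common TMM-adjusted library size, linear axis from 0) of the 10 genes in each library, by group (blue non-injured, red injured) and letter (circle A, square B, triangle C); the bar beside each group is mean ± SD, n = 3. Only Rictor and Rps6kb1 (injured lower) and Eif4ebp1 (injured higher) have groups that do not overlap. Over all genes tested, 9.57% were lower and 11.9% higher in every injured library. Ddit4 is near 0 in both A libraries.

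Muscle fibre transcripts were abundant in every library, as the label says. CPM are counts scaled to a common library size, and the 10 fibre markers, such as Ckm, Acta1 and Ttn, summed to 169150 to 176504 CPM in injured and 183043 to 191809 CPM in non-injured libraries. Most of this was the giant gene Ttn (132034 to 146158 CPM), with Acta1 at 6022 to 7661 CPM. Markers of macrophages summed to 116 to 207 CPM in injured against 57.7 to 68.2 CPM in non-injured libraries, and 5 of the 10 tested rose. For erythroid genes the sums were 132 to 324 against 71.4 to 151 CPM (1 of 5 rose), and for adipocyte markers 39.0 to 52.5 against 60.4 to 86.6 CPM (0 of 6 changed). Lymphocyte and neutrophil markers summed to 5.04 to 12.7 against 1.95 to 5.99 CPM, and 1 of the 2 tested rose. This sum and the erythroid one overlapped between groups. All values of this list were low: Csf3r (6.28, 1.83 and 2.56 CPM in injured A, B and C), Ms4a1 and S100a9 were higher in every injured library. The T cell gene Cd3e was not (2.45, 1.38 and 1.42 CPM in injured and 4.97, 1.15 and 2.14 CPM in non-injured A, B and C). Fibro-adipogenic, endothelial, satellite cell and Schwann cell sums overlapped between groups. Most of the fibro-adipogenic sum was Gsn (339 to 532 CPM), which was lower in every injured library. Pdgfra, Cxcl14, Pi16 and Lum of that list were higher in every injured library, as were 11.9% of all genes tested. Its other genes, Dcn, Dpt and Smoc2, overlapped, and by the test 0 of its 8 genes changed. Some markers of these lists were not analysed here, and none of those analysed was at 0 in all libraries. The part of these cells in the values below was not tested. The deposited counts are named as myonuclear RNA while the extraction protocol describes total RNA, so the values may be nuclear or whole-tissue levels. Either way, fewer cells or nuclei of a type and less RNA in each cannot be told apart.

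Mtor, the kinase itself (chromosome 4, 148448611 to 148557683, plus strand), was steady across all 6 libraries. It was at 70.7, 78.4 and 78.5 CPM in injured A, B and C and at 73.0, 72.4 and 68.5 CPM in non-injured A, B and C. The groups overlapped, and the highest library was 1.14 times the lowest, the narrowest range of the 10 genes. The log2 fold change was 0.09 ± 0.13 (SE, adjusted p = 0.796).

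Rptor encodes raptor, the scaffold that brings substrates to mTOR complex 1 (chromosome 11, 119602905 to 119899576, plus strand). Its values were 74.6, 87.3 and 70.1 CPM in injured and 75.9, 83.1 and 79.7 CPM in non-injured A, B and C. Injured B was the highest and injured C the lowest of the 6, so the injured group spanned the non-injured one. The log2 fold change was -0.04 ± 0.14 (SE, adjusted p = 0.919), and its sign turned with the scaling. The gene shares 84 exonic bases with the antisense gene Rptoros on the other strand, and since the strand setting of the counting is not given, reads there cannot be assigned to either gene.

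Rictor encodes the scaffold of mTOR complex 2, which phosphorylates AKT and is not part of complex 1 (chromosome 15, 6708379 to 6800401, plus strand). It was at 75.8, 77.6 and 90.6 CPM in injured and 106, 96.3 and 118 CPM in non-injured A, B and C. The groups did not overlap, with all injured libraries lower, as in 9.57% of the genes tested. Mean levels were 81.3 ± 8.05 CPM in injured and 107 ± 10.6 CPM in non-injured libraries (SD, n = 3). The fitted log2 difference was -0.39 ± 0.14 (SE), with an unadjusted p of 0.0166 and an adjusted p of 0.215 (edgeR). With the letter as a block Rictor fell by 0.39 ± 0.11 on the log2 scale (SE, edgeR adjusted p = 0.0402). The difference had the same sign in all 3 letters, -0.49 in A, -0.31 in B and -0.38 in C. The blocked call was lost without the A, the B or the C pair (edgeR adjusted p of 0.125, 0.0854 and 0.0926), while the log2 fold change stayed between -0.35 and -0.42 in those fits.

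Deptor, an inhibitor that binds mTOR in both complexes (chromosome 15, 55112317 to 55259271, plus strand), differed by letter more than by group. It was at 62.8, 53.3 and 51.4 CPM in injured and 81.8, 41.6 and 40.8 CPM in non-injured A, B and C. Both A libraries were above the other 4, which held for 10.5% of all genes. Within letter A the injured library was lower (-0.38 on the log2 scale), and within B and C it was higher (0.36 and 0.33). The log2 fold change between groups was 0.03 ± 0.23 (SE, adjusted p = 0.968), a sum of opposite values. Deptor shares 303 exonic bases with the opposite-strand transcript Gm9920, and its deposited values are not whole, so part of its reads may be shared.

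Tsc1 and Tsc2, the scaffold and the Rheb-directed GTPase activator of the TSC complex, were close to level. Tsc1 (chromosome 2, 28641228 to 28691167, plus strand) was at 57.6, 48.0 and 51.7 CPM in injured and 53.7, 53.8 and 52.3 CPM in non-injured A, B and C. Tsc2 (chromosome 17, 24595816 to 24632630, minus strand) was at 57.3, 71.4 and 61.8 CPM in injured and 63.6, 68.4 and 65.6 CPM in non-injured A, B and C. For both genes the injured libraries lay on either side of the non-injured ones. The log2 fold changes were -0.02 ± 0.14 for Tsc1 and -0.05 ± 0.14 for Tsc2 (SE, adjusted p of 0.956 and 0.893). Tsc2 runs tail to tail into Pkd1, with 693 shared exonic bases on opposite strands, and its values are fractional.

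Ddit4 (REDD1) and Sesn1 (sestrin 1) are transcribed in answer to stress, glucocorticoids, p53 or FOXO factors, and both differed between letters in the test given below. The bases before their start sites are shown because these were the members that varied most; they are from RefSeq on GRCm38.p6, 5′ to 3′ on the strand of the gene, and leave out bases in a GENCODE exon. The Sesn1 window lies before the second of its start sites, inside the gene. Capitals mark GGGCGG, the GC box bound by Sp1-type factors, or its reverse complement.
Ddit4, chr10:59951835-59952020, minus strand: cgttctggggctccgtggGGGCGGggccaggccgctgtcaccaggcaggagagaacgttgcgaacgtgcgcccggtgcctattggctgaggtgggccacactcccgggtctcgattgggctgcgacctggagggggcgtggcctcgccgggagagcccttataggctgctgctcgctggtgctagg
Sesn1, chr10:41887189-41887438, plus strand: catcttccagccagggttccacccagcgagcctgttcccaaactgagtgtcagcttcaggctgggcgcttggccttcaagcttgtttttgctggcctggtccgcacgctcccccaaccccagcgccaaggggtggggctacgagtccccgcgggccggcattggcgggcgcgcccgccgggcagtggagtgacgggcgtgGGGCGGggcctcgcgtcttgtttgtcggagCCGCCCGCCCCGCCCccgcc

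The 250 bases before each start site were searched on both strands for 5 motifs in the 8 members with an entry (Mtor, Rptor, Rictor, Tsc1, Tsc2, Ddit4, Sesn1 and Rps6kb1; 9 start sites). GGGCGG was found for Mtor, Rictor, Ddit4 and Sesn1, and in 32.7% of 32851 windows of all genes. AGAACA, the half-site of the glucocorticoid receptor, was found for Rps6kb1 alone, and in 16.1% of all windows. CACGTG (the E-box of TFEB, MYC and clock factors), GTAAACA (FOXO) and TATAAA were found in 0 of the 9 member windows and in 6.02%, 3.17% and 12.4% of all windows. These are matches of letters in a short window and say nothing of binding.

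Ddit4 (chromosome 10, 59949669 to 59951834, minus strand) had the widest range of the 10 genes, and its mean over the B and C libraries was 11.5 times that over the A libraries. It was at 3.22, 15.7 and 23.4 CPM in injured and 2.04, 37.2 and 44.8 CPM in non-injured A, B and C. Both A libraries were far below the other 4, from counts of 21 and 16 against 103 to 335. In letters B and C the injured library held 0.423 and 0.521 times the level of the non-injured one (exact 95% intervals 0.336 to 0.53 and 0.429 to 0.63, counting error only). In letter A the ratio was 1.58, with an interval from 0.783 to 3.23 that includes no difference.

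Between groups, Ddit4 was at -0.98 ± 0.72 on the log2 scale (SE), with an edgeR adjusted p of 0.558. With the letter as a block it fell by 0.87 ± 0.22 on the log2 scale (SE, edgeR adjusted p = 0.0283). That fit assumes 1 difference for all letters, while letter A had the opposite sign. Without both A libraries Ddit4 was called lower without a block (log2 -1.07, edgeR adjusted p = 0.0131), the 1 member called in that fit, beside 0.799% of genes called lower and 0.999% higher. The blocked call was lost without the B pair (log2 -0.58, adjusted p = 0.191) and without the C pair (log2 -0.80, adjusted p = 0.132, edgeR).

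Sesn1 (chromosome 10, 41809935 to 41908424, plus strand), whose product senses leucine and restrains complex 1, ranged from 29.1 to 61.3 CPM. It was at 29.1, 30.3 and 51.1 CPM in injured and 35.1, 57.7 and 61.3 CPM in non-injured A, B and C. The groups overlapped, because injured C lay above non-injured A. Within each letter the injured library was lower, with log2 differences of -0.27 in A, -0.93 in B and -0.26 in C. The log2 fold change was -0.48 ± 0.24 (SE, adjusted p = 0.373) and with the letter as a block -0.49 ± 0.14 (SE, edgeR adjusted p = 0.0555). Blocked fits called it lower without the A pair (adjusted p = 0.0491) and without the C pair (0.0403), but not without the B pair (0.491, edgeR), where the log2 value was -0.26.

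**Figure D2:**
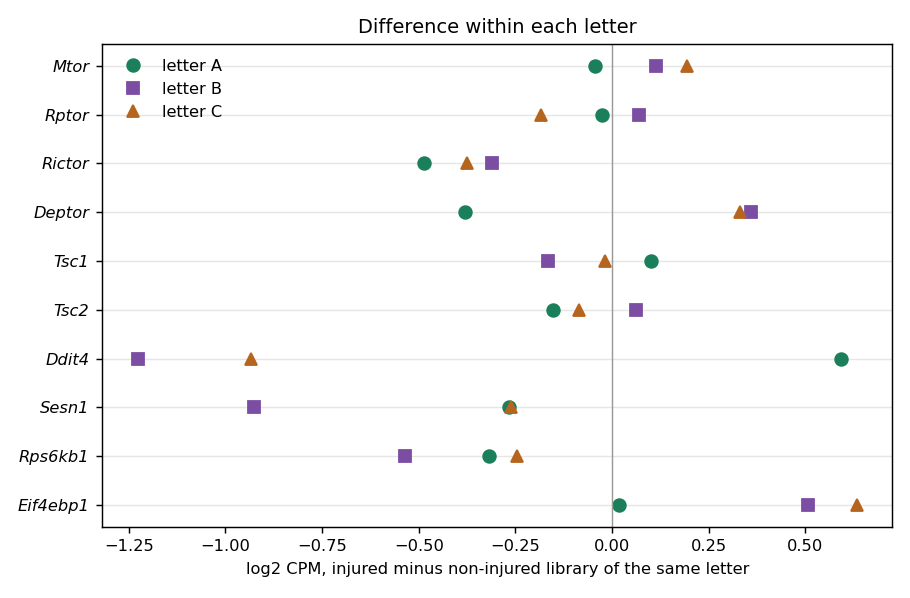
Difference in log2 CPM (prior count 2) between the injured and the non-injured library of the same letter, for each gene; each point is 1 letter. Rictor, Sesn1 and Rps6kb1 are negative and Eif4ebp1 positive in all 3 letters. Ddit4, Deptor and, with smaller differences, Mtor and Tsc1 have letter A on the other side of 0 from B and C.

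Rps6kb1, S6 kinase 1, which phosphorylates ribosomal protein S6 (chromosome 11, 86498871 to 86544805, minus strand), was lower in every injured library without passing the test. It was at 38.0, 28.0 and 33.5 CPM in injured and 47.4, 40.6 and 39.8 CPM in non-injured A, B and C. The groups did not overlap, with all injured libraries lower as in 9.57% of the genes tested, though injured A came close to non-injured C. Means were 33.1 ± 5.01 and 42.6 ± 4.21 CPM (SD, n = 3). The fitted log2 difference was -0.36 ± 0.16 (SE), with an edgeR unadjusted p of 0.0385 and an adjusted p of 0.295. With the letter as a block the adjusted p was 0.096. Rps6kb1 shares 155 exonic bases with Rnft1 on the other strand.

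Eif4ebp1, the translation repressor 4E-BP1 (chromosome 8, 27260329 to 27276674, plus strand), was the only member higher in every injured library. It was at 16.5, 17.9 and 19.7 CPM in injured and 16.3, 12.5 and 12.6 CPM in non-injured A, B and C. All injured libraries being above all non-injured ones held for 11.9% of all genes, and in letter A the difference was only 0.02 on the log2 scale, against 0.51 in B and 0.63 in C. Means were 18.0 ± 1.56 and 13.8 ± 2.18 CPM (SD, n = 3). The log2 fold change of 0.39 ± 0.18 (SE) did not pass the test (edgeR adjusted p = 0.341, and 0.202 with the letter as a block).

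**Figure D3:**
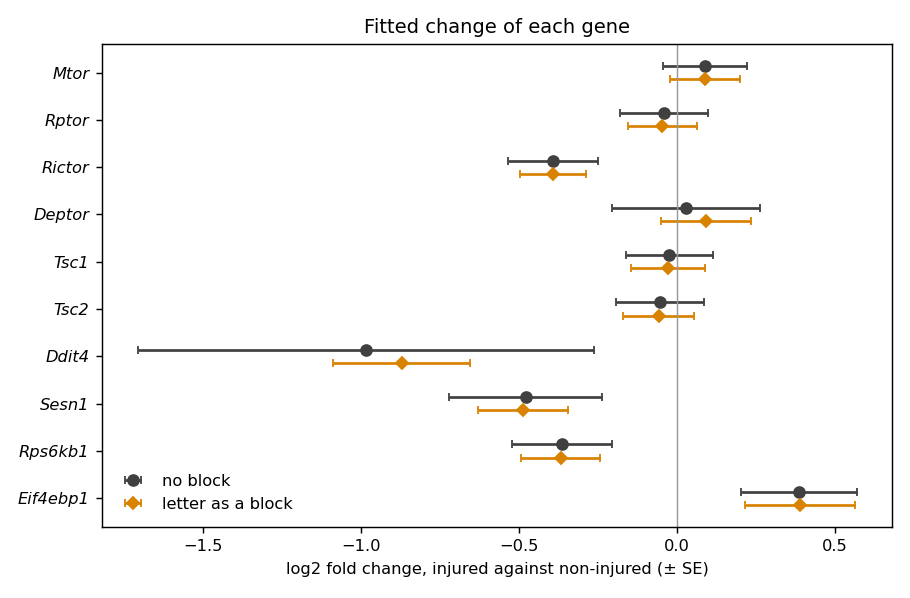
Fitted log2 fold change ± SE of each gene, injured against non-injured, without (grey circles) and with (orange diamonds) the letter as a block. The block changes the SE of Ddit4 most, from 0.72 to 0.22, and leaves Mtor, Rptor, Tsc1 and Tsc2 close to 0.

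Levels of different genes were set side by side as CPM per kb of merged GENCODE exons. In non-injured muscle Ddit4 was at 16.0 ± 13.0 and Sesn1 at 12.9 ± 3.57 CPM per kb (SD, n = 3). Mtor (7.05 ± 0.239), Tsc2 (6.85 ± 0.249), Rictor (6.30 ± 0.627), Eif4ebp1 (6.29 ± 0.993), Deptor (6.17 ± 2.64) and Rptor (5.91 ± 0.268) followed, with Rps6kb1 (4.92 ± 0.486) and Tsc1 (4.50 ± 0.0698) lowest. Only 2 steps in this order were larger than the larger SD of the 2 neighbours, from Sesn1 to Mtor and from Rptor to Rps6kb1. In injured muscle Sesn1 (9.25 ± 3.11 CPM per kb), Eif4ebp1 (8.21 ± 0.711), Ddit4 (8.04 ± 5.79) and Mtor (7.50 ± 0.439) came first. These lay within the SD of Sesn1, as did Tsc2 (6.60 ± 0.749) and Deptor (6.29 ± 0.686), and Rps6kb1 was at 3.83 ± 0.579.

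The letters were then tested directly, a test chosen after the values had been seen. In the blocked edgeR fit, Ddit4 (adjusted p = 1.4e-05) and Sesn1 (0.0374) differed between letters and Deptor just missed (0.0548), 2 of 10 members beside 3.34% of all genes. Under other scalings and filters Deptor passed as well in 3 of 4 fits, those with RLE scaling, with no filter and with a mean of at least 50 counts. The other 7 had adjusted p of 0.484 or more. On average over both groups, log2 CPM in A minus that in B and C was -3.32 for Ddit4, -0.59 for Sesn1 and 0.62 for Deptor. Of 8798 autosomal genes with a mean of at least 50 counts, 2 had a value as low as that of Ddit4, itself included, while 353 were as low as Sesn1. A libraries below all others, as in Ddit4, held for 11.2% of all genes tested.

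Glucocorticoid response genes, listed because glucocorticoids induce Ddit4, varied by letter in part of the same way. Of 12, 5 differed between letters, beside 3.34% of all genes (Fkbp5, Per1, Klf15, Zbtb16 and Sgk1, named after their values were seen), and the first 4 of these and Dusp1 were lower in both A libraries than in all others. The letter difference, A minus B and C in log2 CPM, was -0.88 for Zbtb16 and Klf15, -0.77 for Per1 and -0.64 for Fkbp5. It was above 0 for Mt1 (0.27), Tsc22d3 (0.24) and Klf9 (0.18), which did not pass the letter test, and -0.05 for Mt2. The glucocorticoid receptor Nr3c1 itself did not pass the letter test (adjusted p = 0.561). Between injured and non-injured muscle, the metallothioneins Mt1 and Mt2 rose (log2 1.15 and 1.14, edgeR adjusted p of 0.0153 and 0.0285). Leaving out 1 library gave adjusted p of 0.00589 to 0.101 for Mt1, lost when either C library or the non-injured B library was dropped, and of 0.0378 to 0.1 for Mt2, kept only without injured B. With the letter as a block Cebpd and Nr3c1 fell (log2 -0.63 and -0.41, edgeR adjusted p of 0.0266 and 0.0409). The call of Cebpd was lost without the B pair (0.0575) and the C pair (0.128), and that of Nr3c1 without the A pair (0.0589) and the B pair (0.325). The median of the 12 genes between groups was -0.26. The sum of satellite cell markers was 68.3 and 68.1 CPM in injured and non-injured A and 86.1 to 99.4 CPM in the others. This was mostly Sdc4, at 36.4 and 30.7 CPM against 51.8 to 61.7 CPM. Pax7 was also lowest in the A libraries (0.919 and 2.42 against 2.53 to 4.74 CPM). Myod1 (26.8 and 31.1 against 28.0 to 29.5 CPM), Myf5 and Vcam1 did not set the A libraries apart. Of the fibre markers, looked at after their values were seen, Myh2 was low in both A libraries (1143 and 894 CPM against 1809 to 2229 CPM). So was Mb (543 and 435 against 678 to 889 CPM), as were 11.2% of all genes tested. The myosins Myh1 (4383 and 3310 against 4340.5 to 5235 CPM) and Myh4 (18028.5 and 24569 against 15419 to 22485 CPM) did not set the A libraries apart. The sum of the fibre markers was 174157 and 183043 CPM in A, inside the range of the others. The part of glucocorticoids, of these cells and of these fibres in the letter differences was not tested.

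**Figure D4:**
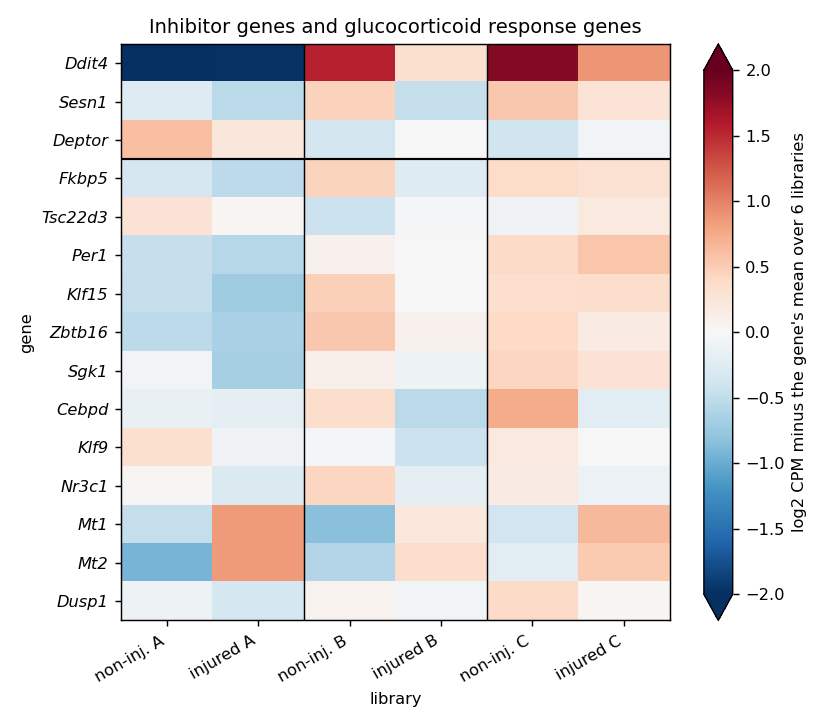
Log2 CPM minus the mean of the gene over 6 libraries, for Ddit4, Sesn1 and Deptor (above the line) and 12 glucocorticoid response genes; columns are libraries in letter pairs, and colours end at -2 and 2, which Ddit4 passes in the A libraries. Zbtb16, Klf15, Per1 and Fkbp5 are low in both A libraries, as Ddit4 is, while Tsc22d3, Klf9 and Mt1 are not, and Deptor is high there.

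Of other upstream programmes, 1 of 10 p53 target genes and 0 of 7 tested ATF4 target genes were called. Eda2r, a p53-induced receptor, rose by 1.01 ± 0.21 on the log2 scale (SE, edgeR adjusted p = 0.0454) while limma-voom gave an adjusted p of 0.0534 and leaving out 1 library 0.0447 to 0.156. With the block Plk2 rose too (1.62, adjusted p = 0.0229, mean of 26.2 counts), a call lost without the A pair (0.0712) and the C pair (0.0925) and made by no fit without a block. In the edgeR letter test 2 of 10 p53 targets and 2 of 7 ATF4 targets differed, beside 3.34% of all genes. The p53 targets went opposite ways. Cdkn1a (p21) was low in both A libraries (letter difference -1.43, letter adjusted p = 0.000917) and Ccng1 was high there (0.64, 0.0137). Chac1, a glutathione-degrading enzyme induced by ATF4, and Vldlr were high there (1.95 and 0.74, letter adjusted p of 1.9e-05 and 0.00196). Cdkn1a, Ccng1 and Chac1 were chosen after their values were seen. Among ATF4 targets, Gadd45a was at 0.52 ± 0.21 on the log2 scale (SE, adjusted p = 0.266), Nupr1 0.45 ± 0.29 (0.494) and Vldlr -0.30 ± 0.24 (0.595). Atf4 itself, given for its role, was at -0.12 (adjusted p = 0.734).

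The rest of the pathway was read from 6 lists with 68 tested genes, and 0 were called higher and 0 lower between injured and non-injured muscle. By edgeR 1, Prkab2, had an unadjusted p under 0.05, against 15.4% of all genes, and DESeq2 and limma-voom called 0. Their median log2 fold change was -0.01. With the letter as a block 2 of the 68 fell, a share near the 2.65% of all genes called lower in that fit: Prkab2, the muscle beta subunit of the energy sensor AMPK (log2 -0.43, adjusted p = 0.0274), and Fnip1, the partner of folliculin in the Rag pathway (-0.45, adjusted p = 0.0234).

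Prkab2 was at 98.3 ± 9.49 CPM in injured and 132 ± 16.0 CPM in non-injured libraries (SD, n = 3). All its injured libraries were lower, as in 9.57% of the genes tested. Fnip1 was at 87.7 ± 29.9 and 118 ± 28.4 CPM, overlapped between groups and was higher in the A libraries than in all others. The catalytic subunits of AMPK, Prkaa1 and Prkaa2, given for their role after their values were seen, had log2 fold changes of -0.01 and -0.16 and did not pass (adjusted p of 0.982 and 0.673). The blocked fit without the A pair called Fnip1 and Slc38a9 lower, the one without the C pair Ddit4l and Prkab2, and the one without the B pair 0 of the 68. In the letter test 5 of the 68 differed, beside 3.34% of all genes: Fnip1, Telo2, Castor2, Eif4e and Lpin1.

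Relatives of the stress inhibitors did not pass either. Sesn2 was higher in every injured library (4.09 ± 0.716 against 2.72 ± 0.428 CPM; log2 0.58 ± 0.35 SE, adjusted p = 0.457) and Sesn3 lower in every one (8.66 ± 0.478 against 10.9 ± 0.694 CPM; log2 -0.33 ± 0.20 SE, adjusted p = 0.464). Ddit4l (REDD2), a paralogue of Ddit4, was at 101 ± 17.8 and 131 ± 30.1 CPM (log2 -0.37 ± 0.18 SE, adjusted p = 0.365). Unlike Ddit4, Ddit4l was high in both A libraries (letter difference 0.45), with a letter adjusted p of 0.1. Rheb, the GTPase that switches complex 1 on (given for its role), was lower in every injured library without passing, at 42.3 ± 1.80 and 45.2 ± 0.613 CPM (log2 -0.10, adjusted p = 0.779). Over all genes tested, 11.9% were higher and 9.57% lower in every injured library.

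The other complex subunits were level, with 6 tested genes between -0.18 and 0.04 on the log2 scale. Mapkap1, a complex 2 subunit, had the lowest value (-0.18 ± 0.17 SE), and the assembly factors Tti1 and Telo2 were at -0.04 ± 0.19 and 0.04 ± 0.29. Telo2 differed between letters (adjusted p = 0.00956), with A lower. Among 8 genes of the inhibiting side of amino acid sensing, Depdc5 was at 0.25 ± 0.20 and Itfg2 at -0.21 ± 0.17 (SE), and 0 passed. Among 17 further substrates and effectors, the transcription factor Tfe3 (0.39 ± 0.19), the elongation factor Eef2 (0.28 ± 0.14) and the Eif4ebp1 paralogue Eif4ebp2 (0.32 ± 0.18) had the smallest p (SE; adjusted p of 0.347, 0.359 and 0.436).

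**Figure D5:**
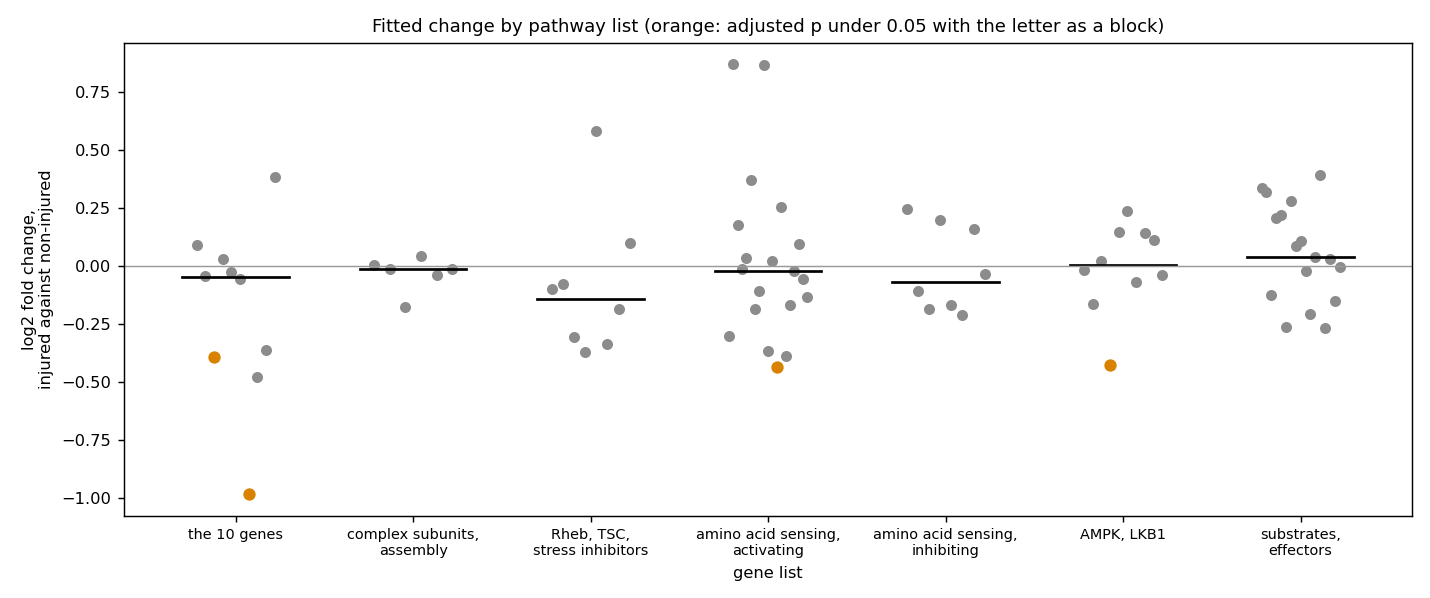
Fitted log2 fold change (injured against non-injured, no block) of the 10 genes and of the 6 further pathway lists; each point is a gene, black bars are list medians, and the grey line is the median of all genes tested. Orange points are genes with an adjusted p under 0.05 with the letter as a block: Rictor, Ddit4, Fnip1 and Prkab2, all with a fitted value below 0. None of these passed in the fit of all libraries without the block, and Ddit4 and Fnip1 overlap between groups. Ddit4 was called lower without a block when both A libraries were left out.

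The genes most like the 3 members of largest change were found by Pearson's r of log2 CPM over the 6 libraries, among 9058 candidates with a mean of at least 50 counts. So many candidates over so few libraries give high values for any gene, and they are a description. For Ddit4 they were Gm38034 (r = 0.997), Amotl2 (0.992) and Aebp1 (0.99), all low in both A libraries. Gm38034 (chromosome 3, 52282241 to 52284309) is an unclassified model inside Foxo1, on its strand. Foxo1, named after its values were seen, was at 31.4, 57.5 and 74.8 CPM in injured and 35.7, 91.3 and 103 CPM in non-injured A, B and C (log2 -0.49 ± 0.34 SE, adjusted p = 0.537; letter adjusted p = 0.000117). For Sesn1 the most alike were Zfp451 (0.997), Srsf2 (0.995) and Hras (0.991), and for Rictor Slf2 (0.997), B4gat1 (0.994) and Fundc1 (0.989). Among the members, Ddit4 and Deptor ran opposite (r = -0.96 over the same 6 libraries) and Ddit4 and Sesn1 alike (0.793), with both A libraries at the low end of Ddit4.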

How the data were processed

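Estimated counts for every gene, 1 column a library, are what the authors deposited for 6 libraries; 72.2% to 74.5% of a library's values are whole. Per the submitters' processing notes, STAR 2.7.8a, Partek and DESeq2 were used, in roles not stated, with builds mm10 and hg19; the program that counted, strand handling and gene models were not given in the sources used here. The table's name calls the RNA myonuclear, while the extraction protocol describes total RNA. No row has its highest value under 10; 19342 of 20015 rows lie at the GENCODE M21 position of their gene.

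Values were rounded and filtered with filterByExpr (3920 rows dropped), scaled by TMM and tested over all genes with edgeR 4.0.16 (quasi-likelihood F test, R 4.3.3), two-sided, with Benjamini-Hochberg adjustment and a threshold of 0.05; the code was tested on simulated data. The SE was obtained as the size of the log2 value divided by the root of F. CPM use the scaled library sizes; log2 CPM use a prior count of 2. Alternatives were other scalings and filters, DESeq2 1.42.0, limma-voom (limma 3.58.1), the letter block, and libraries left out. Whether libraries of a group are separate individuals is not stated, and p-values then reflect library spread only, possibly technical. Deviations from the group means correlated at 0.316 (A), 0.208 (B) and 0.113 (C) between libraries of 1 letter. Between different letters the values ran from -0.232 to 0.0643. Deviations within a group sum to 0, so positive values for the same letter go with negative ones elsewhere. Letters were taken as pairs on this basis, from the same data that the blocked fits test. Every blocked call rests on that choice, which the labels do not state.

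The members and lists were chosen with earlier results of these data known. Genes named beyond the members are, per list, those called with or without the block, or else the 3 with the smallest p; others are said to be named after their values were seen. Of 75 names in the 6 pathway lists, including alternative names of 1 gene, 68 were tested. The RefSeq promoter table held 8 of the 10 members. Sex-linked genes and some genes of the lists are not reported here.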

Additional observations from a re-analysis of the deposited data

How the results depend on the processing

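With 3 libraries a group and adjustment over 16095 genes, small changes are beyond these data; Ddit4 in the A libraries rests on 16 and 21 counts. Members called lower numbered 0 without a block, 2 with the replicate block (Ddit4, Rictor), 2 with the block without the A pair (Ddit4, Sesn1), 1 without the C pair (Sesn1) and 1 without both A libraries and no block (Ddit4); every other alternative gave 0, and 0 members were called higher in any alternative run. Other pathway genes called lower numbered 2 with the replicate block, 2 with the block without the A pair and 2 without the C pair, and 0 otherwise. In the letter test, whose alternatives were added after seeing the data, Ddit4 and Sesn1 passed in every setting run and Deptor in 3 of them, which makes 3 members in place of 2. Leaving out 1 library moved the log2 value of Ddit4 between -1.60 and -0.50, of Sesn1 between -0.81 and -0.35, of Rictor between -0.50 and -0.34, of Rps6kb1 between -0.49 and -0.25 and of Eif4ebp1 between 0.29 and 0.50, none called. The block changed no other call of a member. Over all genes, 115 were called higher and 5 lower without a block, 516 and 427 with it, 252 and 75 by DESeq2, 53 and 6 by limma-voom, 123 and 17 without a filter, 77 and 3 among genes averaging 50 counts or more, and 165 and 132 without both A libraries. The block without 1 pair called 344 to 434 higher and 208 to 336 lower, and leaving out 1 library 20 to 104 higher and 0 to 25 lower.

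Signs near 0 turned, and the cause was not tested. Under upper quartile scaling, Rptor was at 0.0091, Tsc1 at 0.024 and Tti1 at 0.0085. With a mean of at least 50 counts, Rptor was at 0.028, Tsc1 at 0.043, Tsc2 at 0.016 and Tti1 at 0.028. Without a filter Deptor was at -0.018 and Telo2 at -0.012, and limma-voom put Telo2 at -0.0072. With the block and no B pair, Deptor was at -0.030, Tsc1 at 0.049, Tti1 at 0.055 and Telo2 at -0.053; with no C pair, Rptor was at 0.0021, Deptor at -0.042 and Telo2 at -0.098. Leaving out 1 library gave -0.17 to 0.42 for Deptor, -0.11 to 0.036 for Tsc1, -0.15 to 0.00041 for Tsc2, -0.18 to 0.10 for Tti1, -0.28 to 0.33 for Telo2 and -0.57 to 0.0063 for Vldlr.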

Other observations

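The ratio of Eif4ebp1 to Rps6kb1 counts within a library, which no scaling changes, was looked at after the values had been seen. It was 0.435, 0.639 and 0.587 in injured and 0.344, 0.308 and 0.316 in non-injured A, B and C, with means of 0.554 ± 0.106 and 0.323 ± 0.0189 (SD, n = 3). Eif4ebp1 was higher and Rps6kb1 lower in every injured library, so the ratio had to separate the groups, and no test is given. The ratio of Rictor to Rptor counts was 1.02, 0.89 and 1.29 in injured and 1.40, 1.16 and 1.48 in non-injured A, B and C, lower in the injured library of each letter but with overlap between the groups.

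Ddit4 had the third largest letter difference in size among 8798 autosomal genes with a mean of at least 50 counts. The others of the largest 5 were Gm37376 (-5.66), Gm4841 (3.57), F830016B08Rik (3.15) and Gm23472 (-2.86), named after their values were seen.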
